A study of Mus musculus with 4 samples.

Results

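The genes described here were the major adult hemoglobin genes of the mouse, Hbb-bs (ENSMUSG00000052305) and Hbb-bt (ENSMUSG00000073940) for the beta chains and Hba-a1 (ENSMUSG00000069919) and Hba-a2 (ENSMUSG00000069917) for the alpha chains, together with Alas2 (ENSMUSG00000025270). They were taken by symbol, and all 5 were found among the 33696 genes of the deposited single-cell count matrices. The set was drawn up with the spread of hemoglobin UMIs over cell barcodes in these same libraries in view, so where their UMIs lay is a description and carries no test. A UMI is a molecular tag that marks 1 captured RNA molecule, and because the chemistry counts the 3' end of each transcript, levels were not divided by gene length.

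The study asked how lymphatic drainage bears on regeneration of the P3 digit, the last phalanx of the toe, and sequenced 4 single-cell libraries of digit tissue. By its methods, digits for cells were cut at the proximal P2 level, so the libraries were not of the last phalanx alone. Its amputation is described for digits 2 and 4, and whether unamputated digits entered the pools is not stated. Every library came from female C57BL/6 mice (the J substrain in the study's methods) aged 6 to 8 weeks, with hindlimb digits 2 to 4 of 10 mice pooled, and each library was a batch of its own. The LNR library came from mice whose lymph node had been removed and the sham library from its control, which the labels list as untreated. In the study's LNR surgery the opposite limb of the same animal served as sham, and the labels do not say whether the 2 libraries shared animals. The SAR131675 library came from mice fed 30 mg/kg of SAR131675, an inhibitor of the lymphatic receptor VEGFR3, for 8 days by the labels. In the study's methods 30 mg/kg is the content of the chow, which was given from before amputation onward. The control diet library came from the control mice, also listed as untreated. The labels give no time after amputation. There was 1 library per condition, so no test of a difference between conditions was possible, and batch, pool of animals, dissociation and treatment cannot be told apart. Before capture, the cell pellets of all 4 libraries were held in ACK buffer for 2 minutes, a step meant to lyse red blood cells.

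Hemoglobin carries oxygen in red blood cells as a tetramer of alpha and beta chains, each holding a heme group, and in the adult mouse Hba-a1 and Hba-a2 encode nearly identical alpha chains while Hbb-bs and Hbb-bt encode closely related beta chains. Alas2 is the erythroid form of the enzyme that starts heme synthesis in mitochondria, and its sister gene Alas1 serves other cells. Red cells lose their nucleus late in maturation, and reticulocytes, the youngest circulating red cells, still carry RNA in which globin transcripts predominate.

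The promoters of the genes are shown because the 5 genes are read out together below while Hbb-bs and Hbb-bt differ in proportion between barcode sets. Each sequence is the 250 bases before the transcription start on the strand of the gene, credited to RefSeq on GRCm38.p6, an older build than the GRCm39 to which the reads were assigned. Capitals mark matches to the GATAA motif, to the CACCC motif and to the CCAAT motif, searched on both strands, so that a match on the other strand is printed as its reverse complement. The motifs were chosen after the sequences were seen, and no 2 different motifs overlapped.
Hbb-bs, chr7:103827929-103828178, minus strand: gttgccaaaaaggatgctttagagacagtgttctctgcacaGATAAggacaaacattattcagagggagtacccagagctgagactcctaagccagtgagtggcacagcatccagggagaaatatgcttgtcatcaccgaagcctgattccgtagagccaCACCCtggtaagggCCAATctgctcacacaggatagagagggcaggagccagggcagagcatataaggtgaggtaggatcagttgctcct
Hbb-bt, chr7:103813924-103814173, minus strand: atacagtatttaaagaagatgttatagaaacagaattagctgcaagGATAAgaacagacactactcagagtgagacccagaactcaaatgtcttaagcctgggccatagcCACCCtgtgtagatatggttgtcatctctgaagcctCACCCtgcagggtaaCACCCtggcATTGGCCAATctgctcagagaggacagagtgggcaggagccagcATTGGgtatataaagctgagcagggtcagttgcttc
Hba-a1, chr11:32283422-32283671, plus strand: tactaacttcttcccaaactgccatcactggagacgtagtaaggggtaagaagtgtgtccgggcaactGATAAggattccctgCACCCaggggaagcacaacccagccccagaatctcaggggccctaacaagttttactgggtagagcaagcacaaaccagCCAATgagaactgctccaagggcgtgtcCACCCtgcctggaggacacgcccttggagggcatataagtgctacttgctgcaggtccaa
Alas2, chrX:150547167-150547416, plus strand: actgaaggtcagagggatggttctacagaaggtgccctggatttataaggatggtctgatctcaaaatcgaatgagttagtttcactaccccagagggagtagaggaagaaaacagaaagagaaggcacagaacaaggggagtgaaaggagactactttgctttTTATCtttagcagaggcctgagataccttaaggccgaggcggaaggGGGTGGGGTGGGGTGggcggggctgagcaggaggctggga

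Each of the 5 promoters held 1 GATAA, a motif that GATA factors bind and that was present in 22.6% of 32851 mouse promoter windows. CACCC, the core of the site of Klf-family factors, was found 1 time upstream of Hbb-bs, 3 times upstream of Hbb-bt and of Alas2, and 2 times upstream of each alpha gene, against a presence in 52% of windows. CCAAT was found 1 time for Hbb-bs, 3 times for Hbb-bt, 1 time for each alpha gene and 0 times for Alas2, and in 33.8% of windows. The window of Hba-a2 (chr11:32296242-32296491, plus strand) matched that of Hba-a1 at 247 of 247 aligned bases, while the windows of Hbb-bs and Hbb-bt matched at 178 of 243 (73.3%). A motif match describes these letters and is not evidence of binding.

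The likeness of the transcripts bears on how far the pairs can be separated. In the transcript models of the reference, Hba-a1 and Hba-a2 agreed at 537 of 538 aligned bases, and 359 of the 610 windows of 90 bases in Hba-a1 occurred unchanged in Hba-a2. Hbb-bs and Hbb-bt agreed at 580 of 626 bases (92.7%), and 341 of 539 windows of Hbb-bs occurred unchanged in Hbb-bt. Over the last 300 bases, at the end that the chemistry counts, the alpha pair agreed at 283 of 284 aligned bases (99.6%) and the beta pair at 260 of 297 (87.5%). The split between Hba-a1 and Hba-a2, and to some degree that between Hbb-bs and Hbb-bt, is therefore uncertain in every library, and most values below are given for sums.

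The libraries held 21669 to 38464 deposited barcodes and 168507188 to 585284877 UMIs. Barcodes were kept with 200 to 5500 genes, at most 30000 UMIs and at most 10% mitochondrial UMIs, which left 29076 barcodes for SAR131675, 24030 for control diet, 19827 for LNR and 20669 for sham. The median depth of kept barcodes was 11316 and 10712 UMIs in the SAR131675 and control diet libraries and 5725 and 5851 in the LNR and sham libraries. The SAR131675 and control diet libraries shared 348 barcode sequences, the LNR and sham libraries 130, and the other pairs 0 to 3. Intervals given below are 95% exact intervals of counting error only, since there is no second library of any condition.

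Hemoglobin RNA made up 0.232% of all UMIs in the SAR131675 library, 0.41% in control diet, 0.224% in LNR and 0.115% in sham. The UMIs were spread very unevenly over barcodes. In the SAR131675 library 49.5% of barcodes held 0 globin UMIs and 46.7% held 1 to 9, and the shares were 41.3% and 52.6% in control diet, 72.8% and 25.4% in LNR, and 80.7% and 17.8% in sham. Barcodes with 10 to 99 globin UMIs were rare in all 4 libraries, at 0.309% to 1.62%. Above that lay a separate group of barcodes with 100 or more, numbering 1123 in SAR131675, 1408 in control diet, 315 in LNR and 224 in sham, and these held 97.1%, 97.6%, 97.5% and 95.4% of all globin UMIs of their library. Hemoglobin RNA was thus bimodal over the deposited barcodes, with a large group at 0 to 9 molecules and a small group at 100 or more. Each deposited barcode held at least 500 UMIs, so a barcode of mostly globin could not appear with few globin UMIs. The part of that floor in the gap between the groups was not tested.

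**Figure D1:**
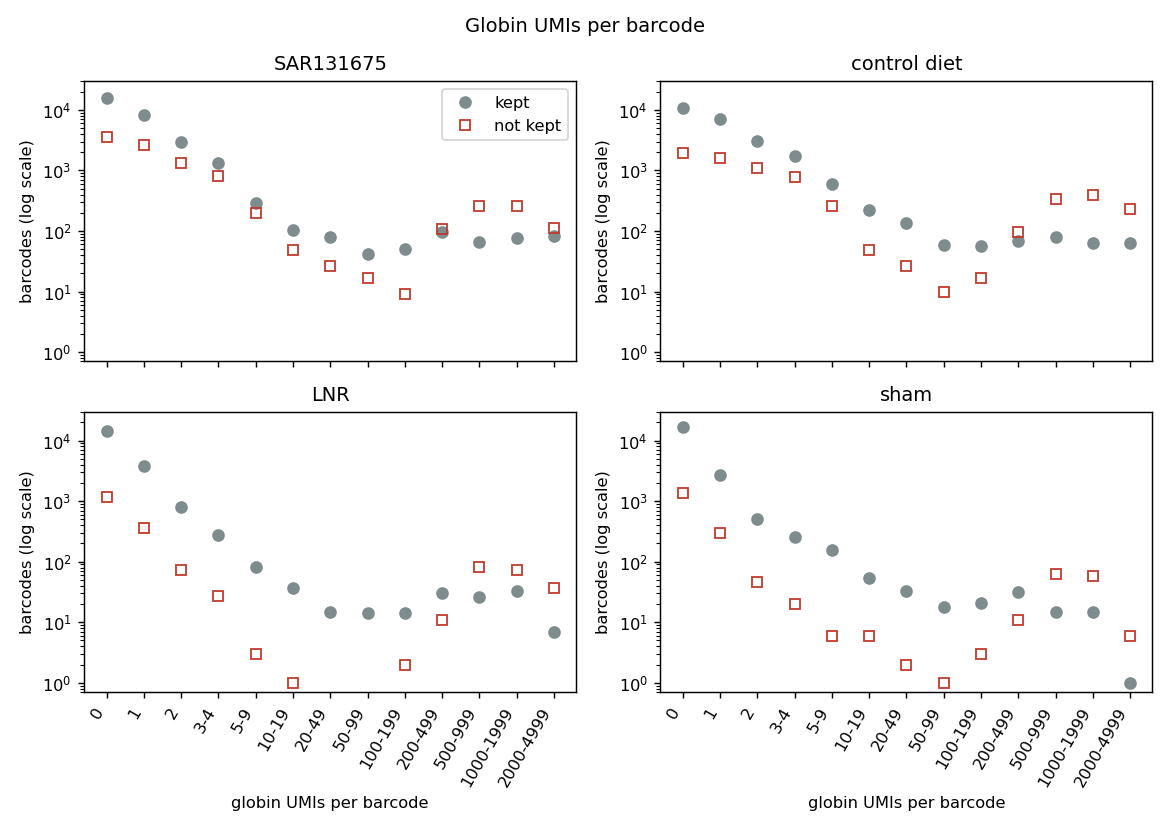
Number of barcodes (log scale) by globin UMIs per barcode (sum of Hbb-bs, Hbb-bt, Hba-a1 and Hba-a2) in each library, with filled circles for kept and open squares for not kept barcodes, and empty bins not drawn. Bins widen toward higher globin UMIs, and no deposited barcode held under 500 UMIs of all genes. Counts per bin fell from 0 UMIs to a trough between 20 and 199 UMIs and rose again above it, where barcodes that were not kept outnumbered kept ones from 500 UMIs upward in each library.

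The larger share of hemoglobin UMIs lay in barcodes that the lower gene limit removes. Barcodes with fewer than 200 genes held 59.7% of globin UMIs in SAR131675, 75.1% in control diet, 70.3% in LNR and 70.1% in sham, although they numbered only 1195, 1325, 405 and 349. Kept barcodes held 34.1%, 21.6%, 28.4% and 27.9% in the same order. Alas2 followed the same division, with 56.6%, 73.9%, 62.4% and 59.7% of its UMIs below the gene limit and 34.3%, 21.3%, 33.3% and 35.7% in kept barcodes. The mitochondrial limit removed little of it, at 0.227% to 1.72% of globin UMIs.

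Part of the barcodes under the gene limit held hemoglobin and little else. Barcodes with under 200 genes and at least 10% globin UMIs, called few-gene globin-rich barcodes here, numbered 677 in SAR131675, 1008 in control diet, 198 in LNR and 136 in sham, or 176, 327, 91.4 and 60.3 per 10000 deposited barcodes. They made up 56.7%, 76.1%, 48.9% and 39% of all barcodes under the gene limit. Globin UMIs were a median 88.7%, 90.8%, 94.2% and 92.9% of their UMIs. Their median gene number was 111, 92, 63 and 64.5, and what was left after the globins was a median 135, 120, 70.5 and 73 UMIs per barcode. Keratinocyte marker UMIs, a check on RNA of another cell of the tissue, were 1.88%, 1.29%, 0.73% and 0.842% of their UMIs that were not globin. In kept barcodes neither globin-rich nor erythroid by markers they were 1.99%, 2.28%, 1.39% and 1.53%. The part of keratinocyte RNA in the values of the few-gene set was not tested. Fewer such barcodes and less RNA in each cannot be told apart from these counts, and the buffer step comes before either.

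**Figure D2:**
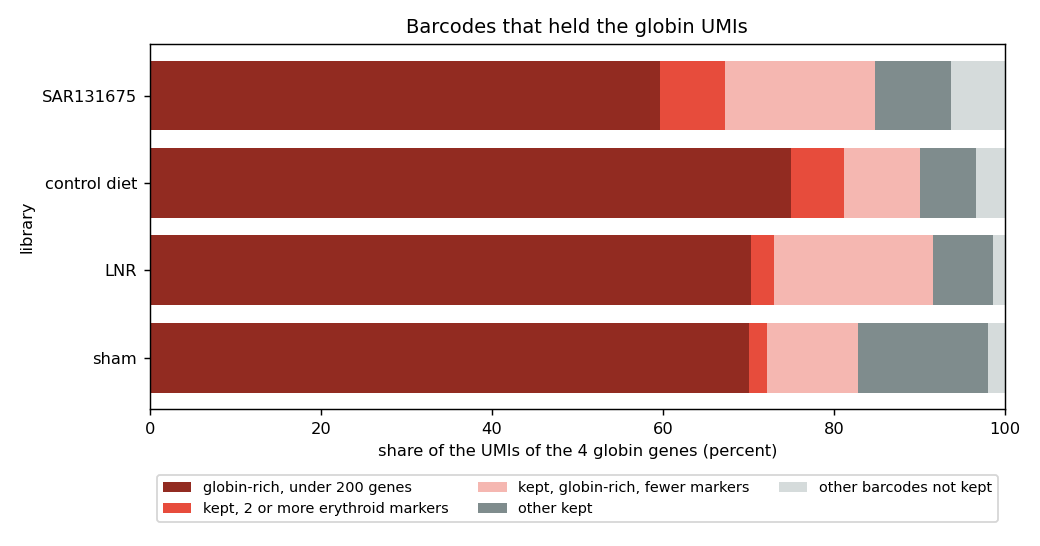
Share (percent) of the UMIs of the 4 globin genes held by 5 exclusive sets of barcodes in each library. Globin-rich barcodes with under 200 genes held 59.7% in SAR131675, 75% in control diet, 70.3% in LNR and 70.1% in sham, and kept barcodes with erythroid markers held 7.62%, 6.12%, 2.75% and 2.06%.

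The gene limit cut through a range of globin-rich barcodes in 2 of the libraries. In SAR131675, 132 globin-rich barcodes had 150 to 199 genes and 60 had 200 to 249, with median globin shares of 89.2% and 88.5%. In control diet the numbers were 98 and 37, with 88.5% and 87.5%. In LNR there were 2 and 5 such barcodes and in sham 6 and 3, so little lay near the limit in those libraries. UMIs of at least 2 of the red cell markers listed below were found in 10 of the 132 and 19 of the 60 barcodes of SAR131675. In control diet they were found in 40 of the 98 and 20 of the 37, so the 2 sides of the limit differed in markers.

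Among kept barcodes an erythroid class was set by UMIs of at least 2 of 11 red cell genes other than the 5 described here (among them Hemgn, Klf1, Slc4a1, Epb42, Rhag, Rhd, Kel, Tspo2 and Trim10). It held 43 barcodes in SAR131675, 48 in control diet, 5 in LNR and 3 in sham. It accounted for 22.4%, 28.4%, 9.68% and 7.39% of the globin UMIs of kept barcodes, so most hemoglobin RNA of the kept barcodes lay outside it. Of its barcodes 37, 41, 3 and 2 were at least 10% globin. In kept barcodes with UMIs of exactly 1 marker, Hemgn was that marker in 320 of 522, 428 of 615, 212 of 258 and 265 of 306. Globin-rich kept barcodes were fewer, at 181, 156, 63 and 26, so Hemgn was found outside them too and marks red cells weakly on its own. Clustering gave the class no cluster of its own, and 27 of 43 and 26 of 48 fell in 1 unnamed cluster of the SAR131675 and control diet pair. That cluster held 1129 barcodes, and its best marker score was for the erythroid list (0.86, then keratinocyte at 0.454). The 5 genes described here were among its leading genes, beside Hells, Uhrf1, Car2, Slfn9 and Mcm3. Outside the class, 612 of its 648 barcodes in SAR131675 and 411 of 428 in control diet held at most 10 globin UMIs. Those barcodes held a mean of 0.678 and 1.04 globin UMIs, so most of the cluster was not rich in hemoglobin. Of the class, 11, 16, 2 and 2 barcodes lay in keratinocyte-like clusters. The median gene number was 266, 283.5, 1577 and 1925, and keratinocyte marker UMIs were 1.97%, 2.74%, 1.62% and 3.33% of the UMIs that were not globin. In LNR and sham the class rested on a few barcodes, and the part of keratinocyte RNA in its values was not tested.

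All 5 genes stood far higher in the marker-defined erythroid barcodes than in the rest of the kept barcodes. Hbb-bs reached 181280 UMIs per 1000000 (CPM) in SAR131675, 146531 in control diet, 98868 in LNR and 69583 in sham. In all kept barcodes outside the class, globin-rich ones included, it stood at 520, 515, 364 and 192 CPM. Hbb-bt reached 47064, 40563, 27686 and 16328 CPM, against 89.6, 91.9, 55.1 and 31 CPM. Hba-a1 reached 86375, 75989, 38398 and 28354 CPM, against 248, 254, 145 and 69.3. The order SAR131675, control diet, LNR, sham held for each beta and alpha gene within the class, but it rests on 5 barcodes in LNR and 3 in sham. Median gene numbers of the class were 266, 283.5, 1577 and 1925, so its barcodes held more other RNA in LNR and sham. All RNA enters the total of CPM, and its part in the order was not tested. Hbb-bs did not keep this order in the few-gene globin-rich barcodes, so no ranking of libraries is read from it. Hba-a2 reached 72855, 66868, 32593 and 21575 CPM, against 201, 210, 113 and 54.4. Alas2 reached 934, 885, 516 and 261 CPM from 249, 302, 27 and 8 UMIs, against 2.67, 3.22, 1.61 and 1.18 CPM. The share of barcodes with an Alas2 UMI was 93%, 91.7%, 80% and 100% in the class and 1.3%, 1.54%, 0.585% and 0.523% outside it.

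In the few-gene globin-rich barcodes the levels of all 5 genes were higher still. The set was chosen on its globin share, so the hemoglobin levels describe it. Hbb-bs stood at 444442 CPM in SAR131675, 435440 in control diet, 479260 in LNR and 481666 in sham. Hba-a1 stood at 205041, 213349, 202895 and 192731 CPM and Hba-a2 at 166635, 177968, 161102 and 152121 CPM. Hbb-bt was the lowest of the hemoglobin genes, at 70999, 80746, 84721 and 87634 CPM. Alas2, which did not enter the choice of the set, stood at 2089, 2638, 1689 and 1994 CPM, and 78.4%, 88.1%, 79.8% and 85.3% of the barcodes held at least 1 of its UMIs.

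The remaining kept barcodes that were at least 10% globin but had fewer than 2 markers numbered 144, 115, 60 and 24. They held 51.5%, 41.3%, 65.5% and 38.1% of the globin UMIs of kept barcodes. Their median gene number was 794.5, 1113, 1528 and 1216 and their median globin share 30.3%, 24.6%, 20.1% and 18.3%, so hemoglobin stood beside a larger body of other RNA than in the few-gene barcodes. Whether they were red cells, doublets of a red cell with another cell, or other cells with captured red cell RNA was not tested.

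The balance of alpha to beta UMIs was higher in the SAR131675 and control diet libraries than in the LNR and sham libraries in each of 3 barcode sets. It compares the same genes between barcodes and is not a ratio of protein chains. In the few-gene globin-rich barcodes the ratio of alpha (Hba-a1 and Hba-a2) to beta (Hbb-bs and Hbb-bt) UMIs was 0.721 in SAR131675, 0.758 in control diet, 0.645 in LNR and 0.606 in sham. In kept barcodes with at most 10 globin UMIs, which share no barcode with the first set, it was 0.723 (0.703 to 0.743), 0.761 (0.742 to 0.782), 0.623 (0.593 to 0.654) and 0.527 (0.499 to 0.557). In the marker-defined barcodes it was 0.697 (0.689 to 0.706), 0.764 (0.755 to 0.773), 0.561 (0.539 to 0.584) and 0.581 (0.545 to 0.619). Control diet was the highest library in each set, while LNR lay above sham in the first 2 sets and not in the third, where their intervals overlapped. The higher pair was processed with the newer software release and was also the deeper pair. The part of software and depth was not tested. Between individual barcodes with at least 100 globin UMIs, the interquartile range of the few-gene set was 0.636 to 0.837 in SAR131675 and 0.549 to 0.67 in sham, with 0.686 to 0.858 in control diet and 0.589 to 0.721 in LNR, so the middle ranges of single barcodes overlapped in part between the pairs. The ratio of Hba-a2 to Hba-a1 lay between 0.747 and 0.88 in these sets, the marker-defined barcodes included, and is the one most open to read assignment.

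Of the barcode sets compared here, the marker-defined barcodes had the highest share of Hbb-bt in each library. Its ratio to Hbb-bs was 0.26 (0.255 to 0.265) in the marker-defined erythroid barcodes of SAR131675, 0.277 (0.272 to 0.282) in control diet, 0.28 (0.264 to 0.297) in LNR and 0.235 (0.213 to 0.259) in sham. In the few-gene globin-rich barcodes it was 0.16, 0.185, 0.177 and 0.182. In kept barcodes with at most 10 globin UMIs it was 0.146 (0.138 to 0.154), 0.153 (0.145 to 0.161), 0.119 (0.108 to 0.131) and 0.153 (0.139 to 0.168). In each library the pooled ratio of the marker-defined barcodes was the highest of these sets, though the intervals cover counting error only and the class held 5 barcodes in LNR and 3 in sham. Between single barcodes with at least 100 globin UMIs the interquartile range was 0.219 to 0.297 in the marker-defined and 0.0446 to 0.212 in the few-gene barcodes of SAR131675, and 0.225 to 0.32 and 0.0665 to 0.236 in control diet. It was 0.263 to 0.292 and 0.068 to 0.208 in LNR, and 0.201 to 0.243 and 0.123 to 0.228 in sham, so the ranges overlapped in control diet and sham.

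The same order held within the globin-rich barcodes when they were arranged by the number of red cell markers with a UMI. Below the gene limit the Hbb-bt to Hbb-bs ratio was 0.151 with 0 markers, 0.204 with 1 and 0.25 with 2 or more in SAR131675, from 599, 65 and 13 barcodes. In control diet it was 0.171, 0.214 and 0.24, from 786, 151 and 70 barcodes. In LNR it was 0.168 with 0 markers and 0.23 with 1, from 177 and 17 barcodes. In sham it was 0.17, 0.238 and 0.221, from 117, 14 and 5 barcodes, so the last step was not upward there. Depth moved with it, since median globin UMIs per barcode rose from 964 to 1569 and 1799 across the 3 marker numbers in SAR131675 and from 1064 to 1638 and 2074 in control diet, and its part in the ratio was not tested. Among kept globin-rich barcodes with at least 100 globin UMIs the ratio was 0.189, 0.248 and 0.259 in SAR131675 and 0.21, 0.269 and 0.279 in control diet. In sham it was 0.161 with 0 markers and 0.263 with 1, from 19 and 5 barcodes. The latter lay above the 0.235 of the marker-defined barcodes of sham.

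**Figure D3:**
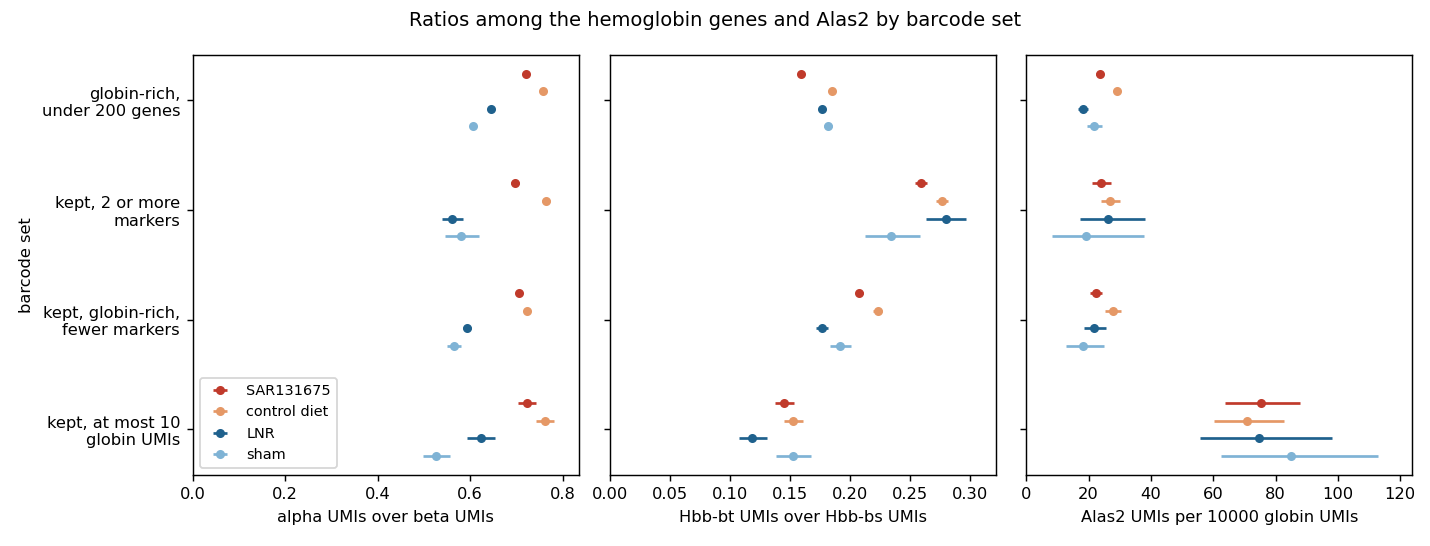
Alpha over beta UMIs, Hbb-bt over Hbb-bs UMIs and Alas2 UMIs per 10000 globin UMIs in 4 barcode sets of each library, as points with 95% intervals of counting error. Hbb-bt over Hbb-bs was 0.235 to 0.28 in kept barcodes with 2 or more markers and 0.119 to 0.185 in the few-gene set and in barcodes with at most 10 globin UMIs.

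Alas2 was carried by the same barcodes as hemoglobin. Barcodes with 100 or more globin UMIs held 91.2% of Alas2 UMIs in SAR131675 (3073 UMIs), 94.4% in control diet (5123), 89.5% in LNR (692) and 85.1% in sham (441). Per 10000 globin UMIs, the few-gene barcodes held 23.6 (22.5 to 24.6) Alas2 UMIs in SAR131675, 29.1 (28.2 to 30) in control diet, 18.2 (16.6 to 19.9) in LNR and 21.8 (19.4 to 24.4) in sham. Marker-defined barcodes held 24.1 (21.2 to 27.3), 26.8 (23.9 to 30), 26.1 (17.2 to 38) and 19.2 (8.28 to 37.9), intervals that overlapped between all 4 libraries. In kept barcodes with at most 10 globin UMIs the figure was 75.2 (63.8 to 88), 70.9 (60.3 to 82.7), 74.7 (55.7 to 98) and 85 (62.6 to 113). These figures rest on 156, 162, 52 and 48 Alas2 UMIs, and since the set is chosen on the globin UMIs in the denominator, a raised figure follows in part from the choice.

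Those low-hemoglobin Alas2 UMIs were not spread evenly over clusters. In the LNR and sham pair, 1 unnamed cluster held 20 of 52 Alas2 UMIs in LNR and 24 of 48 in sham. Its level was 3.46 CPM (2.11 to 5.35) in LNR and 3.73 CPM (2.39 to 5.55) in sham, against 0.235 and 0.169 CPM in the other barcodes with at most 10 globin UMIs. The cluster was led by Far2, Fa2h, Elovl6 and Scd1, which act in the synthesis of fatty acids, wax alcohols and related lipids, and by Serpina3b, Serpina3j and Cidea, genes named after their values were seen. Its hemoglobin was 18.2 CPM in LNR and 16.8 in sham at a median depth of 19049 and 17959 UMIs, and per barcode it was 0.332 and 0.289 UMIs, within the range of the other classes. In the SAR131675 and control diet pair a cluster led by Far2, Serpina3j and Fa2h held Alas2 at 1.13 (0.539 to 2.07) and 2.5 (1.46 to 4) CPM, against 0.449 and 0.574 in the rest. Its marker score put this cluster in the keratinocyte-like class, although 0 of its 10 leading genes were keratinocyte markers, so the values of that class in this pair include it. All these levels rest on 10 to 24 UMIs. Other clusters reached similar levels, among them 1 unnamed cluster of control diet at 2.72 CPM (1.49 to 4.56) from 14 UMIs, 1 of SAR131675 at 1.92 CPM (0.703 to 4.17) from 6 UMIs, and sweat gland-like barcodes of LNR at 4.9 CPM (1.34 to 12.6) from 4 UMIs, so Alas2 was not particular to the clusters led by lipid genes.

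Outside the erythroid class and the globin-rich barcodes hemoglobin was found in every class of cells, and its level was read in barcodes with at most 10 globin UMIs. A low level in that set follows from the choice. Among the barcodes with at most 10 globin UMIs and outside the marker class, keratinocyte-like cells held a mean of 0.771 globin UMIs per barcode in SAR131675, 1.02 in control diet, 0.368 in LNR and 0.332 in sham. Fibroblast-like cells held 0.658, 0.929, 0.327 and 0.221. Macrophage-like cells held 0.593, 0.841, 0.34 and 0.19, and neutrophil-like cells 0.59, 0.704, 0.342 and 0.196. The keratinocyte-like class of sham, its highest in mean, included 1 cluster with Krt36, Krt84 and Krtap genes among its leading genes. That cluster had 385 kept barcodes in sham, 329 of them with at most 10 globin UMIs, and 3 kept barcodes in LNR. Its part in the class mean was not tested. Over the classes with at least 100 barcodes (16, 16, 20 and 19 per library), the mean ran from 0.53 to 0.812 in SAR131675, from 0.704 to 1.04 in control diet, from 0.223 to 0.557 in LNR and from 0.0849 to 0.332 in sham. That is a 1.53-, 1.47-, 2.5- and 3.92-fold span, where the median depth of the same classes spanned 7.14-, 7.46-, 11.8- and 13.3-fold. The limit of 10 globin UMIs narrows the span of the means. With barcodes of over 10 globin UMIs kept in, that span was 146-, 77.6-, 129- and 155-fold. Mean and log depth had a Pearson's r of 0.55, 0.61, 0.35 and 0.78 over these classes, which share a library, so the mean was not free of depth.

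The alpha to beta ratio of single classes ran from 0.625 to 1.09 in SAR131675, from 0.593 to 1.18 in control diet, from 0.361 to 0.936 in LNR and from 0.32 to 0.903 in sham, and for most classes it rests on too few UMIs to place them against each other. The share of barcodes with a globin UMI ran over classes from 30.7% to 50.8%, 39.1% to 57.1%, 20.4% to 30.7% and 6.06% to 24.1% without thinning. With each barcode thinned to 2000 UMIs, and shallower barcodes left out, the ranges were 12.2% to 22.6%, 17% to 30.5%, 4.54% to 18.5% and 4.58% to 13.8%. No class was called as expressing hemoglobin from shares at these levels.

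**Figure D4:**
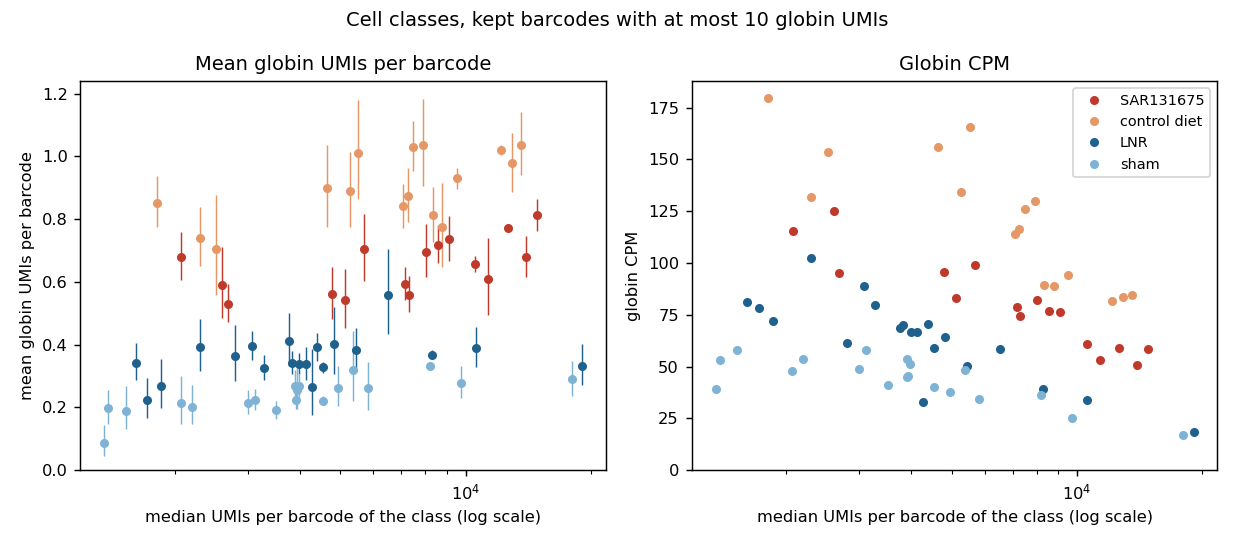
Mean globin UMIs per barcode (left, with 95% intervals of counting error) and globin CPM (right) against the median UMIs per barcode (log scale) of each class with at least 100 barcodes, for kept barcodes with at most 10 globin UMIs. Within a library the means spanned 1.47- to 3.92-fold while median depth spanned 7.14- to 13.3-fold, and the limit of 10 globin UMIs narrows the span of the means.

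The SAR131675 and control diet libraries differed little in kept barcodes and more in the barcodes left out. In kept barcodes Hbb-bs stood at 662 CPM with SAR131675 and 702 CPM with control diet, Hbb-bt at 127 and 144, Hba-a1 at 315 and 351, and Hba-a2 at 258 and 296. Alas2 stood at 3.4 (3.21 to 3.6) and 4.35 (4.1 to 4.61) CPM. The 4 globins together had a log2 ratio of -0.13 (0.912-fold), and 0 of 5 genes differed by 2-fold, against a background of 2.24% of 24116 genes higher by that much and 2.09% lower. Over every deposited barcode the log2 ratio was -0.82 (0.566-fold) for the globins and -1.07 (0.476-fold) for Alas2, all 5 being lower with SAR131675. In kept barcodes with at most 10 globin UMIs it was -0.50 (0.705-fold) for the globins. Once erythroid barcodes were set aside by markers, kept barcodes stood at 1058 and 1070 CPM, a log2 ratio of -0.017 that turned positive with barcodes thinned to 2000 UMIs (0.24) and per barcode (0.062), so no direction is read from it.

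Within the few-gene barcodes the same pair differed in Alas2. With globin UMIs left out of the total, Alas2 stood at 18507 CPM with SAR131675 and 28517 with control diet, a log2 ratio of -0.62 (-0.70 to -0.54), or 0.649-fold. Over all UMIs the log2 ratio of Alas2 was -0.34 and that of Hbb-bt -0.19, while Hbb-bs was at 0.03. Per 10000 globin UMIs Alas2 stood at 23.6 and 29.1. Fech, Slc25a37, Bpgm, Epb41 and Mkrn1 were lower with SAR131675 on the scale without globin too, as their levels below show, so the difference was not particular to Alas2. These genes share 1 total, a median of 135 and 120 UMIs per barcode that were not globin. Keratinocyte marker UMIs were 1.88% and 1.29% of the UMIs that were not globin. The part of this shared total in the differences was not tested. The Alas2 difference is between single libraries that also differed in the number of these barcodes, 677 against 1008.

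The LNR and sham libraries differed about 2-fold in hemoglobin over all kept barcodes, with LNR higher. In kept barcodes Hbb-bs stood at 400 CPM in LNR and 206 in sham, Hbb-bt at 65.3 and 34.3, Hba-a1 at 159 and 75, and Hba-a2 at 125 and 58.7. Alas2 stood at 1.8 (1.59 to 2.03) and 1.23 (1.06 to 1.42) CPM, from 257 and 185 UMIs. The 4 globins together had a log2 ratio of 1.00 (2-fold). Hba-a1 (2.11-fold) and Hba-a2 (2.13-fold) were the 2 of 5 genes that reached 2-fold higher, where 1.79% of 20590 genes did and 1.57% were 2-fold lower. Hbb-bs at 1.94-fold and Hbb-bt at 1.90-fold lay just under it. With the globin-rich barcodes left out of the kept barcodes the log2 ratio was -0.12, and in barcodes with at most 10 globin UMIs it was 0.37 (1.29-fold) with LNR still higher. With the erythroid class left out as well as the globin-rich barcodes, the log2 ratio was -0.18 for Hbb-bs, -0.87 for Hbb-bt and -0.76 for Alas2. It was 0.04 for Hba-a1 and 0.08 for Hba-a2, so the direction was not the same in every set and gene. All these steps remove barcodes rich in globin, so a smaller or reversed ratio follows in part from the choice. LNR had 63 globin-rich kept barcodes and sham 26.

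The wider heme and red cell program was read from 83 further genes in lists of heme synthesis, iron supply, heme breakdown, red cell membrane and related roles. In the marker-defined erythroid barcodes of SAR131675 and control diet, 22 of the 51 genes with enough UMIs were at least 2-fold higher in both libraries than in all kept barcodes outside the class, and 8 were lower, against a background of 1.25% of 7836 genes higher and 17.3% lower. Of the 22, 15 were not among the markers that set the class. The filter favours genes that are high there: 17 of the 51 had enough UMIs only through the erythroid barcodes themselves, and of the 34 that would have had enough at the level of other barcodes 6 were higher. The 8 lower genes are a share near the background and nothing is read from them. With globin UMIs left out of the total, 25 of 45 genes were higher and 3 lower (Blvra, Top2a and Birc5), against a background of 2.52% of 6460 genes higher and 3.84% lower, and of the 24 that would have had enough at the level of other barcodes 6 were higher. In LNR and sham 8 genes had enough UMIs, with 3 higher (Epb41, Bpgm and Mkrn1, none of them past the filter without the erythroid barcodes) and 2 lower (Fth1 and Lrp1), against 2.31% and 11.7% of 864 genes. With globin UMIs left out of the total the counts there were again 3 higher and 2 lower of 8, against 2.69% and 8.44% of 782 genes. Because globins fill a large part of the UMIs in these barcodes, every other gene is pressed downward on this scale, and the median over all genes tested was a log2 ratio of -0.78 in the first pair and -0.23 in the second.

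Other kept barcodes, here and below, are those neither globin-rich nor in the erythroid class. The few-gene globin-rich barcodes allowed a closer look with the globins left out of the total. There 24 of 34 genes were higher in both SAR131675 and control diet and 2 were lower (background 5.04% and 28.2% of 4447 genes), and 17 of 18 were higher in both LNR and sham and 0 lower (27.0% and 12.7% of 418). Of the genes with enough UMIs at the level of other barcodes, 6 of 15 were higher in the first pair and 1 of 2 in the second. Since these barcodes were chosen for globin content, the counts describe them and are not a test.

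Of the 8 listed heme synthesis genes other than Alas2, 1 (Fech) was higher in each pair of libraries. In SAR131675 and control diet 6 had too few UMIs, and in LNR and sham 7. Over all genes 5.04% were higher in the first pair and 27.0% in the second. Fech had enough UMIs only through the few-gene barcodes where it is high, so its call describes them and supports nothing further. Fech, the ferrochelatase that inserts iron in the final step, stood at 3308 CPM in SAR131675, 4986 in control diet, 2773 in LNR and 3683 in sham, against 28.7 to 34.8 in other kept barcodes. Slc25a37, the mitoferrin that brings iron into mitochondria, stood at 4762, 7305, 2481 and 3383 CPM, against 12.2 to 19.4. Glrx5, which serves iron-sulfur cluster assembly, stood at 601, 740, 1314 and 977 CPM, against 94.8 to 126. Of Slc25a37 and Glrx5, 1 in SAR131675 and control diet and 2 in LNR and sham had enough UMIs only through the few-gene barcodes. The enzymes between Alas2 and Fech were seen at 0 to 11 UMIs per library. Of these, Cpox had enough UMIs in SAR131675 and control diet (6 and 11, beside 0 in LNR and 0 in sham) and was neither higher nor lower by 2-fold. Alas1, the form of other tissues, had 0, 1, 0 and 0 UMIs.

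Of the 18 genes of red cell membrane and enzymes, 10 were higher in SAR131675 and control diet and 8 had too few UMIs, and in LNR and sham the numbers were 7 and 11. Of the 9 genes of the alpha chain chaperone and late erythroid list they were 6 and 3 in the first pair and 4 and 5 in the second. Over all genes 5.04% were higher in the first pair and 27.0% in the second. Most of these listed genes had enough UMIs only through the few-gene barcodes where they are high, namely 8 of 10 and 7 of 7 of the membrane and enzyme genes and 5 of 6 and 4 of 4 of the late erythroid genes, so the counts describe the barcodes and support nothing further. Bpgm, the enzyme that makes the oxygen-affinity regulator bisphosphoglycerate, stood at 8555 CPM in SAR131675, 13487 in control diet, 11531 in LNR and 11501 in sham, against 13.3 to 17 in other kept barcodes. Ube2l6, an enzyme of protein conjugation by ISG15 and ubiquitin, stood at 10796, 15137, 4817 and 6014 CPM, against 5.48 to 8.05. The cytoskeletal gene Epb41 and the ubiquitin ligase gene Mkrn1 followed the same pattern, with 6179, 10713, 4330 and 4811 CPM for Epb41 and 8148, 13835, 10947 and 10298 CPM for Mkrn1. Slc4a1, the gene of the band 3 anion exchanger and one of the class markers, had 26, 113, 10 and 13 UMIs, or 252, 804, 487 and 977 CPM, against 0 to 0.0567 CPM in other kept barcodes, which the choice of those barcodes by markers lowers. Hbq1a, a theta-type globin, had 22, 41, 11 and 9 UMIs.

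The list of erythroid transcription factors and the erythropoietin receptor held 9 genes, of which 2 had enough UMIs in SAR131675 and control diet. Lmo2, a partner of GATA factors, was higher, with 27, 43, 1 and 3 UMIs and 262 and 306 CPM in SAR131675 and control diet, against 18.7 and 16.7 CPM in other kept barcodes. It had enough UMIs only through the few-gene barcodes where it is high, and 5.04% of all genes were higher, so nothing is read from it. Bcl11a, a repressor of globin genes of early life, had 6 and 2 UMIs in SAR131675 and control diet, or 58.2 and 14.2 CPM against 137 and 109. Since 28.2% of all genes were lower, nothing is read from Bcl11a. Gata1 had 0, 1, 0 and 0 UMIs, and Klf1 and the erythropoietin receptor gene Epor had 0 in each library. Tfrc, the transferrin receptor, had 2, 2, 0 and 0. Mki67, a gene of dividing cells, had 13, 5, 3 and 3 UMIs, a level of 126, 35.6, 146 and 226 CPM beside 92.7 to 140 in other kept barcodes. Of the 3 genes of division with enough UMIs (Mki67, Top2a and Pcna), 0 were higher and 0 lower in SAR131675 and control diet. Of the iron storage genes, Ftl1 was higher by 4.24, 4.58, 3.66 and 3.91 on the log2 scale while Fth1 had log2 ratios of 0.86, 1.28, 0.81 and 0.86 and was not called in either pair.

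**Figure D5:**
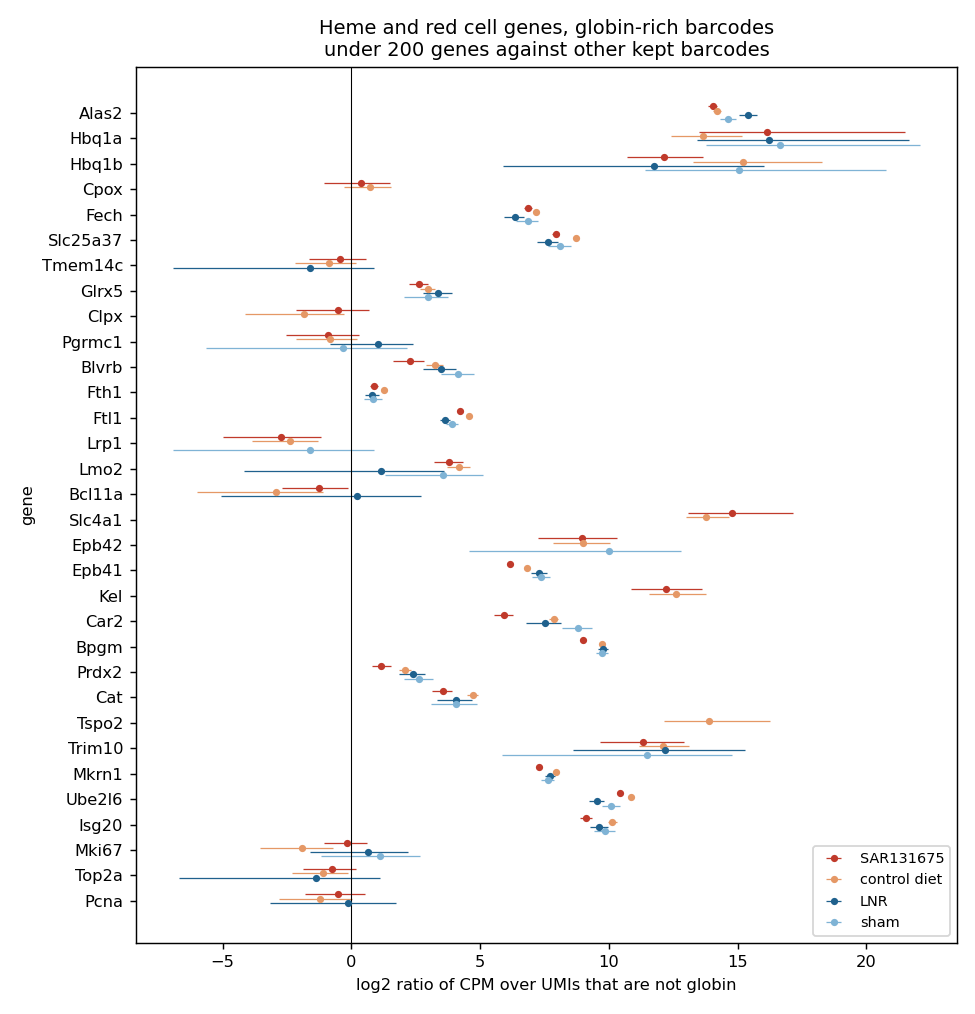
Log2 ratio of CPM over UMIs that are not globin in few-gene globin-rich barcodes against other kept barcodes, with 95% intervals of counting error, for Alas2 and 31 of the listed genes with enough UMIs in the SAR131675 and control diet libraries. A library with 0 UMIs of a gene on either side has no point, Alas2 lay at 14.04 to 15.40, Fech at 6.34 to 7.16 and Fth1 at 0.81 to 1.28.

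Outside the lists, the 10 genes whose level followed the 5 genes most closely were found by Pearson's r of log2(CPM + 1) over 56 class-by-library points, which share libraries and include the 4 few-gene sets. They were Apol11b (r = 0.89), Paqr9 (0.87), Fam220a (0.86), Ube2o (0.85), Ccndbp1 (0.85), Bnip3l (0.84), Tfdp2 (0.83), Gm10371 (0.82), Rec114 (0.80) and Marchf2 (0.80), while the 5 genes themselves had r of 0.97 to 1.00 with their own mean. Ube2o encodes an enzyme that marks proteins for removal as reticulocytes mature, and Bnip3l the receptor by which they clear mitochondria. Over all UMIs of the few-gene barcodes Bnip3l stood at 777 CPM in SAR131675, 914 in control diet, 477 in LNR and 587 in sham, and Ube2o at 219, 322, 109 and 110 CPM. Without the few-gene sets the r values were 0.56 to 0.79 over 52 points.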

How the data were processed

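A set of 4 10x Genomics single-cell libraries (3' chemistry) of mouse digits, cut at the proximal P2 level by the study's methods, was analysed, 1 library per condition. The deposited matrices hold whole-number UMI counts per gene and barcode, not normalized, which the authors made with Cell Ranger on GRCm39. Per the file headers, version 6.1.2 was used for LNR and sham and 8.0.1 for SAR131675 and control diet, where the submitters' processing notes list 6.1.2 for all. Total counts per library were 168507188 to 585284877, and 0 columns were left unmapped.

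The genes and lists were chosen with earlier results of these data known. Barcodes were kept by the limits that the study states for its LNR data. Doublets and free RNA were not removed. The erythroid class needed UMIs of at least 2 of 11 measured markers (12 were listed, and Ahsp was not used here). Kept barcodes of each library pair were clustered with scanpy 1.11.5 (2000 variable genes, 30 components, 20 neighbours, Leiden resolution 0.7) and named "-like" from marker lists. Levels are summed UMIs per 1000000 UMIs of the same barcodes (CPM). Ratios between sums have exact conditional binomial intervals (95%, scipy 1.17.1), and single levels have exact Poisson intervals, all for counting error only. A gene entered a comparison of barcode sets where at least 5 UMIs were found in the erythroid set, or expected there from its level in the others, in both libraries of a pair, and a comparison of libraries from 10 UMIs in all. It was called from 2-fold (0.5 UMIs added) in both libraries. Every deposited barcode held at least 500 UMIs. With 1 library per condition no p-value was computed. Scripts were tested on simulated data. Named genes were the 5 genes, the pathway lists and the 10 most alike genes with at least 200 UMIs over all libraries. Promoters and transcripts came from the reference tables, aligned with Biopython 1.88. Some genes of the lists enter the counts but are not reported here by name.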

Additional observations from a re-analysis of the deposited data

How the results depend on the processing

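No paired analysis was possible because each condition has 1 library and the replicate numbers name no second sample. Values below are log2 ratios unless given as percent. For SAR131675 over control diet, the globin ratio of all kept barcodes was -0.13, and it was -0.16 with no upper limits, -0.82 over every deposited barcode, -0.15 with a mitochondrial limit of 5% and -0.054 per barcode in place of CPM. By gene it was -0.084 (Hbb-bs), -0.18 (Hbb-bt), -0.16 (Hba-a1), -0.20 (Hba-a2) and -0.35 (Alas2). For LNR over sham it was 1.00, and 0.96 over every barcode, 1.07 with the 5% limit and 0.98 per barcode, with 0.95, 0.93, 1.08, 1.09 and 0.55 by gene in the same order.

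Outside the erythroid class the SAR131675 ratio was -0.017. It was -0.057 with no upper limits, -0.76 over every barcode, -0.025 with the 5% limit, -0.13 with a class of at least 1 marker, -0.33 with globin-rich barcodes as the class and -0.50 without barcodes of over 10 globin UMIs. It turned positive with barcodes thinned to 2000 UMIs (0.24) and per barcode (0.062), and the cause was not tested. The LNR ratio was 0.96. It was 1.00 over every barcode, 1.04 with the 5% limit, 0.99 with at least 3 markers, 1.12 with at least 1, 1.10 thinned, 0.37 without barcodes of over 10 globin UMIs and 0.95 per barcode. It turned to -0.12 with globin-rich barcodes as the class, which leaves out the barcodes that hold most hemoglobin.

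The share of kept globin UMIs in erythroid barcodes depended on how the class was drawn, in the order SAR131675, control diet, LNR and sham. From 22.4%, 28.4%, 9.68% and 7.39% it went to 40.6%, 41.5%, 18.8% and 25.4% with at least 1 marker, to 12.8%, 19.4% and 8.02% with at least 3 (sham did not move) and to 72.9%, 68.8%, 73.5% and 42.2% with globin-rich barcodes. Over every deposited barcode it was 10.1%, 14.1% and 4.65% by markers in the first 3 libraries and 85.4%, 90%, 91.8% and 83.4% by globin share, the latter chosen after seeing the data. It was 21.9% and 27% with no upper limits for SAR131675 and control diet, and 23.3%, 29.5% and 8% with the 5% limit for SAR131675, control diet and sham. Hemgn was the only marker with a UMI in most barcodes that the class of at least 1 marker added. No cluster was named erythroid-like, so that alternative gave no value.

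The alternatives for listed genes and classes were chosen after seeing the data. In LNR and sham 3 listed genes were higher in the marker class and 17 in the few-gene barcodes. The span of class means was 146-, 77.6-, 129- and 155-fold when barcodes with over 10 globin UMIs were kept in, against 1.53-, 1.47-, 2.5- and 3.92-fold without them. Depth limits Alas2: its levels in barcodes with at most 10 globin UMIs rest on 48 to 162 UMIs per library.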

Other observations

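Barcodes of the erythroid class and those with over 10 globin UMIs were left out here, and unnamed clusters were not ranked. Genes that handle heme after release were ranked over the named cell classes with at least 100 barcodes. These classes numbered 10 in SAR131675, 10 in control diet, 14 in LNR and 13 in sham. Hmox1, the heme oxygenase that opens the heme ring, was highest among them in macrophage-like cells in each library, at 483 CPM in SAR131675, 439 in control diet, 407 in LNR and 397 in sham, where the median over named classes was 16.6 to 21.5 CPM. Cd163, the scavenger receptor for hemoglobin bound to haptoglobin, was highest in the same class, at 638, 672, 536 and 574 CPM. It is among the markers that named that class, so its place there follows in part from the naming. Blvrb, a biliverdin reductase, also had its highest level there, at 253, 248, 227 and 261 CPM.

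Of the named classes, neutrophil-like cells were highest for Hp, the haptoglobin gene, at 258, 518, 359 and 372 CPM, and for Alas1, at 108, 81.5, 43.7 and 72.7 CPM from 96, 43, 70 and 75 UMIs. Cygb, a globin of connective tissue cells, was highest of the named classes in fibroblast-like cells, at 295, 392, 326 and 329 CPM, against 1.95 to 7.63 CPM in keratinocyte-like cells. Class names rest on marker genes, each level is that of 1 library per condition, and none of these orders was tested.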
